A study of Mus musculus with 3 samples.

Results

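The genes described here are 10 members of the mammalian circadian clock, taken by symbol from the 31053 genes of a single-cell table of mouse blood leukocytes: the activators Arntl and Clock, the repressors Per1, Per2, Per3, Cry1 and Cry2, the nuclear receptors Nr1d1 and Nr1d2, and the output factor Dbp. All 10 were found, and each symbol was matched to 1 row. The study kept C57/BL6J mice awake and named 3 single-cell samples, a control group at 0 h (Con) and sleep-deprived groups at 24 h (SD24h) and 48 h (SD48h). Each was 1 library in which blood leukocytes of 3 mice had been pooled after lysis of red cells and loaded on a Chromium 3' v3 chip, and about 7000 cells were aimed for in each. Also named in the series is a sleep restriction method (SASD), which was not analysed here. The sources used here give neither the age of the mice nor the hour at which blood was drawn, a value on which clock transcripts depend.

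The 3 libraries are told apart in the table only by the ending of the cell barcode, 1, 2 or 3, and nothing in the sources used here ties an ending to a group. The values below are therefore given for library 1, library 2 and library 3, and no sleep-deprived group is compared with the control. Because each library was a single pool, every interval printed is an exact 95% interval that covers counting error only, and no p-value was calculated.

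The circadian clock is a feedback loop that runs in most cells of the body. ARNTL (also called BMAL1) and CLOCK bind DNA as a pair and switch on the Per, Cry, Nr1d and Dbp genes, and the PER and CRY proteins then return to the nucleus and block that pair. NR1D1 and NR1D2 (REV-ERBα and REV-ERBβ) repress Arntl in another loop, so that in tissues with a running clock Arntl transcripts peak at about the opposite time of day to Nr1d1, Nr1d2, Dbp and the Per genes. Blood leukocytes are known for daily rhythms of their numbers in the circulation, and neutrophils, monocytes and lymphocytes have each been described as carrying clock transcripts. Per1 is also known as a target of the glucocorticoid receptor and of cAMP signalling.

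Of 22204 barcodes, 17752 were kept as cells. Their clusters were named from marker genes as neutrophil-like (5663 cells), monocyte-like, B cell-like, T cell-like or NK cell-like, and each of these 5 classes met markers of its own type. Library 1 stood apart: 8.08% of its kept cells were neutrophil-like, against 56.1% in library 2 and 36.2% in library 3, and 529 of its 541 neutrophil-like cells lay in a cluster with Jaml, Cd101 and Lst1 among its leading genes, which held 27 cells of library 2 and none of library 3. Library 1 also held 828 of the 1064 cells of a cluster led by Gp5, Treml1 and other platelet genes, which was left unnamed. Totals ranged from 30114546 to 40807434 unique molecular identifiers (UMIs, counts of captured transcript molecules) per library, and the libraries' median UMIs per barcode from 3721.5 to 4405. The libraries shared 61 barcode sequences, and leaving out the 98 kept cells that carried them left every count of members called below as it was.

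Levels are UMIs per 1000000 UMIs of the same class and library (CPM). In these bulk sums over a class, fewer cells with a transcript and fewer transcripts per cell cannot be told apart.

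The promoters of 9 of the 10 genes were matched in RefSeq (GRCm38.p6). Those of Arntl, Per1, Cry1 and Nr1d2 are shown because the levels of these genes carry the differences between classes and libraries described below. Each window runs from 250 bases before a transcription start to 50 bases after it, 5′ to 3′ on the strand of the gene. The windows lie at chr7:113207261-113207560 (Arntl, plus strand), chr11:69098699-69098998 (Per1, plus strand), chr10:85185005-85185304 (Cry1, minus strand) and chr14:18239057-18239356 (Nr1d2, minus strand). Capitals mark matches, on either strand, to the E-box CACGTG and the E'-box CACGTT, at which CLOCK and ARNTL are known to bind, to the D-box TTATGTAA or TTATGCAA, at which DBP and NFIL3 are known to bind, and to the response element of the ROR and REV-ERB receptors (RORE). No motif searched overlapped another in these windows.
Arntl: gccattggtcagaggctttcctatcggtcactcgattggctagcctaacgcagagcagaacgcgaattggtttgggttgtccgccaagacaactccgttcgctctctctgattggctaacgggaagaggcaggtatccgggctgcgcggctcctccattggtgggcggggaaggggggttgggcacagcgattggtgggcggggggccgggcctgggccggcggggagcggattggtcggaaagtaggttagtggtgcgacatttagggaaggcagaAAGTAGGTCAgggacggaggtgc
Per1: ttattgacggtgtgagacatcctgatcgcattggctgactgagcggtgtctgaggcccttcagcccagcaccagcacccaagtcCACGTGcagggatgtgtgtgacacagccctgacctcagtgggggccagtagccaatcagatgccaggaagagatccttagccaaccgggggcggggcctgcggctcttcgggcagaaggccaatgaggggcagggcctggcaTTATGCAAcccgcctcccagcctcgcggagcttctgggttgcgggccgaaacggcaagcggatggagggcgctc
Cry1: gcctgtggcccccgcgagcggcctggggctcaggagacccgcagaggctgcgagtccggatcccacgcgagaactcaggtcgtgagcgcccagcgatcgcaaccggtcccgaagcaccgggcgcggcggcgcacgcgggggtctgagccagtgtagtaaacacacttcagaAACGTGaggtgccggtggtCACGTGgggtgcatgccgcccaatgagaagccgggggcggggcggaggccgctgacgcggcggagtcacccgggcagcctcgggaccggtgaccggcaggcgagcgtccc
Nr1d2: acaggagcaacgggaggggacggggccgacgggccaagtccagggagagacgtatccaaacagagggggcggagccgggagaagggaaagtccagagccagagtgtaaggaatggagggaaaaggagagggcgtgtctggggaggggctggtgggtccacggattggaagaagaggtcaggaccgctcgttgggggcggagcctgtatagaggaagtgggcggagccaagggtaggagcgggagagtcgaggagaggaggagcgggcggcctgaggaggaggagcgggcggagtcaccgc
Arntl and Per1 each had another window in the table, from a different start (chr7:113207215-113207514 and chr11:69099902-69100201), which held none of the motifs. The Arntl window shown held a RORE 27 bases after the start and no E-box, E'-box or D-box. The Per1 window shown held an E-box 166 bases and a D-box 24 bases before the start, and the Cry1 window an E-box 60 bases and an E'-box, printed as its reverse complement AACGTG, 79 bases before it. None of these letters was found in the Nr1d2 window, which says only that they are not in these 300 bases. Among all 32851 promoter windows of that length, 7.15% held the E-box, 4.68% the E'-box, 1.66% the D-box and 0.219% the RORE. The cAMP response element TGACGTCA was searched too and was in 1.79% of them, but in no window of a member. Of the other members, the Per3 window held a pair of D-boxes, the Cry2 and Nr1d1 windows an E'-box each, and the 3 Clock windows and the Dbp window none of these motifs. A match is a description of the letters and not evidence of binding.

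All 10 genes were sparse. Over the 5 named classes, Clock had 1653 UMIs, Cry1 1204, Arntl 925, Per1 684, Dbp 590, Per2 429, Nr1d2 413, Cry2 338, Per3 183 and Nr1d1 33, and among 18176 genes with a UMI their totals lay between percentile 31.2 for Nr1d1 and percentile 72.1 for Clock. These sums add up molecules over classes of very different size and are not compared between genes as levels. A gene with at least 20 UMIs in a class over the 3 libraries is called measured there. In B cell-like cells 9 of 10 members were measured (all but Nr1d1), in T cell-like cells 8, in monocyte-like cells 7, in neutrophil-like cells 6 and in NK cell-like cells 5, beside 70.4%, 69.2%, 70.0%, 64.9% and 61.9% of all genes with a UMI in these classes. In erythroid-like cells, a cluster of 281 cells led by haemoglobin genes, the 10 genes together had 5 UMIs, and their summed level was 2.61, 0 and 7.88 CPM in libraries 1, 2 and 3. In the 5 named classes the summed level of the 10 genes was 44.4 to 57.8 CPM in neutrophil-like cells, 71.8 to 83.2 in T cell-like cells, 82.9 to 90.1 in monocyte-like cells, 88.6 to 101 in B cell-like cells and 91.9 to 95.1 in NK cell-like cells. The neutrophil-like range did not overlap that of any other class, but most genes had lower CPM in neutrophil-like cells. The median log2 ratio of genes, neutrophil-like over B cell-like, was -0.59, -1.18 and -1.34 in libraries 1, 2 and 3. It covers 9820, 9993 and 10133 genes with a UMI in both classes and at least 20 in them together, so genes at 0 in either class are left out. These sums were not rescaled between classes, so the gap is not read as particular to the members.

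**Figure D1:**
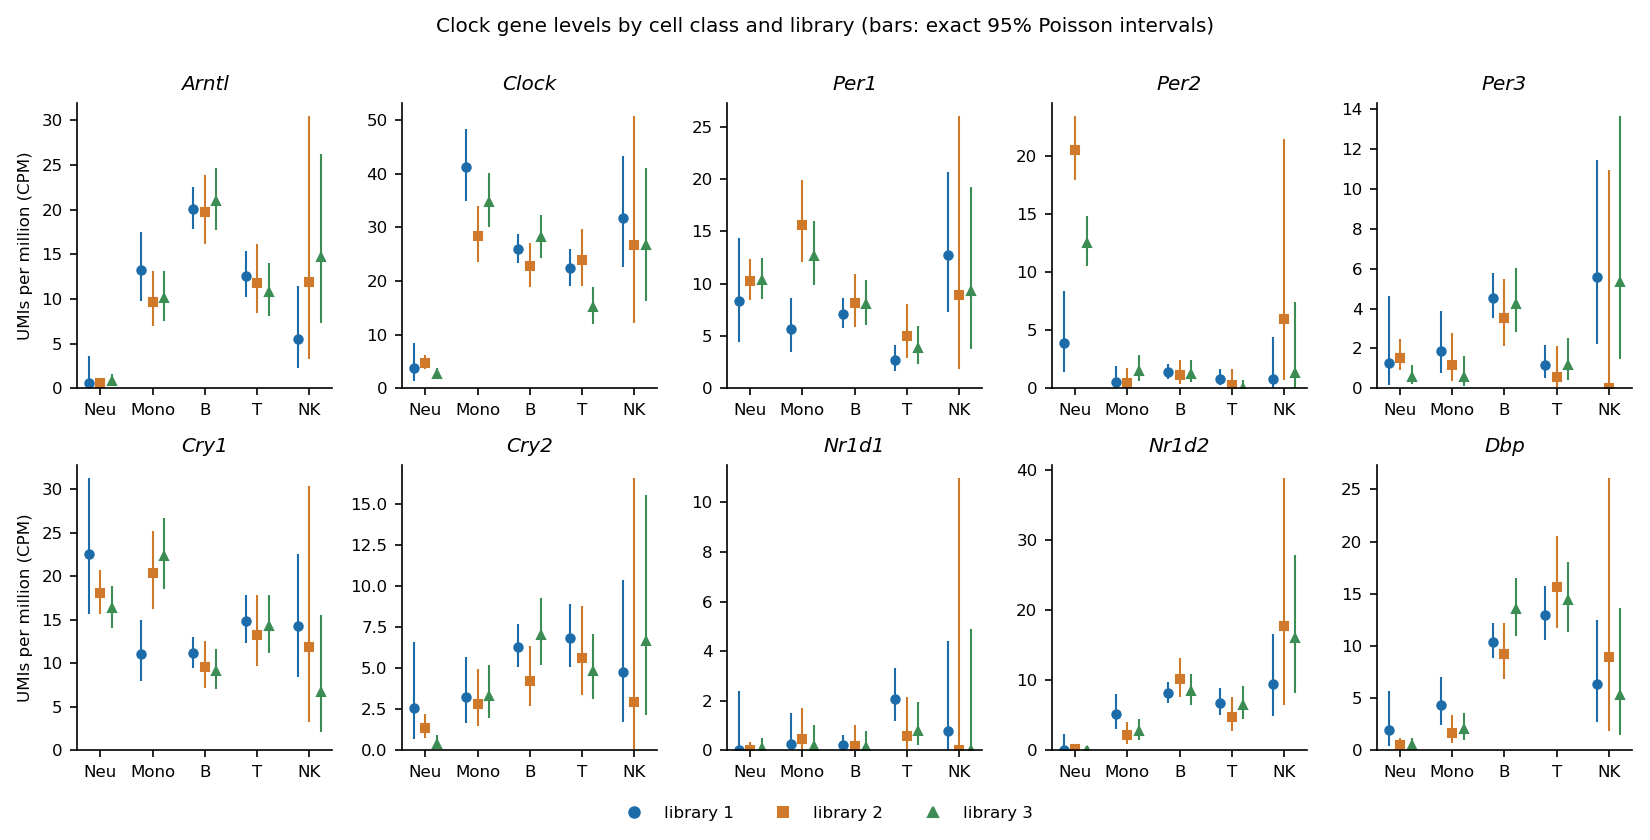
Levels of the 10 clock genes (y axis, UMIs per 1000000 UMIs of the class and library, starting at 0, with a scale of its own for each gene) in neutrophil-like (Neu), monocyte-like (Mono), B, T and NK cell-like cells (x axis). Points are the 3 libraries and bars exact 95% Poisson intervals. On this scale Arntl, Clock and Nr1d2 are lowest in neutrophil-like cells in all 3 libraries, Per2 is highest there, and Per1 and Cry1 in monocyte-like cells are lower in library 1 than in libraries 2 and 3.

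Arntl (chr7:113207465-113314126, plus strand, GRCm38) encodes the activator without which the mammalian clock stops. In B cell-like cells it stood at 20.1 CPM in library 1, 19.8 in library 2 and 20.97 in library 3, in T cell-like cells at 12.6, 11.8 and 10.8, and in monocyte-like cells at 13.2, 9.71 and 10.1. In NK cell-like cells it was at 5.56, 11.9 and 14.7 CPM, from 7, 4 and 11 UMIs. In neutrophil-like cells only 16 Arntl UMIs were counted, 1, 6 and 9 in the 3 libraries, or 0.644, 0.544 and 0.818 CPM. Neutrophil-like cells were thus lowest in every library, and their 3 values lay below every value of the other classes, though in library 1 their interval (0.0163 to 3.59) overlapped that of NK cell-like cells (2.235 to 11.45). The next lowest class was 8.63-fold higher in library 1 (NK cell-like, interval 1.11 to 389), 17.9-fold in library 2 (monocyte-like, 7.54 to 51.5) and 12.3-fold in library 3 (monocyte-like, 6.03 to 28.3). B cell-like cells exceeded T cell-like and monocyte-like cells in all 3 libraries with intervals above 1, while monocyte-like and T cell-like cells did not differ beyond counting error in each library.

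Clock (chr5:76209868-76304792, minus strand) encodes the partner of ARNTL. Its level was 41.3, 28.4 and 34.8 CPM in monocyte-like cells of libraries 1, 2 and 3, 31.8, 26.7 and 26.6 in NK cell-like cells, 26.0, 22.7 and 28.2 in B cell-like cells and 22.4, 24.0 and 15.2 in T cell-like cells. In neutrophil-like cells it was 3.86, 4.71 and 2.64 CPM, from 6, 52 and 29 UMIs. Those 3 values lay below all others, with the next class 5.79-fold higher in library 1 (interval 2.61 to 16.0), 4.82-fold in library 2 (3.46 to 6.80) and 5.77-fold in library 3 (3.73 to 9.16). The order of the remaining classes did not hold beyond counting error: monocyte-like cells were first in each library, but their ratio to the next class was 1.30 (0.912 to 1.89), 1.06 (0.542 to 2.38) and 1.24 (1.01 to 1.52). Clock overlaps the gene models Ube2n-ps1 and Gm43658 on its own strand, whose molecules the counting may have split.

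Per1 (chr11:69095217-69109960, plus strand) encodes a PERIOD repressor whose transcription also answers to hormones and other acute signals. Its level in monocyte-like cells was 5.67 CPM in library 1, 15.6 in library 2 and 12.6 in library 3. In neutrophil-like cells the 3 values were close together, at 8.37, 10.2 and 10.4 CPM, as in B cell-like cells at 7.10, 8.13 and 8.02. T cell-like cells were lowest in each library at 2.70, 5.03 and 3.85 CPM, and lay below neutrophil-like and monocyte-like cells with intervals above 1 in all 3 libraries, though not below B cell-like cells in library 2 (B cell-like over T cell-like 1.62, 0.905 to 3.02). NK cell-like cells stood at 12.7, 8.91 and 9.32 CPM, from 16, 3 and 7 UMIs.

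Per2 (chr1:91415982-91459324, minus strand), which encodes a PERIOD protein that forms the repressor complex with the CRY proteins, was concentrated in neutrophil-like cells, with 371 of its 429 UMIs. The level there was 3.86 CPM in library 1, 20.6 in library 2 and 12.54 in library 3, from 6, 227 and 138 UMIs. In monocyte-like cells it was 0.540, 0.474 and 1.46 CPM, in B cell-like cells 1.38, 1.11 and 1.27, and in T cell-like cells 0.771, 0.296 and 0. The T cell-like count of 0 in library 3 allows up to 0.577 CPM at 3 UMIs (exact upper bound 0.710). Neutrophil-like cells were highest in all 3 libraries, but the ratio to the next class had an interval above 1 only in library 3 (8.57, 4.23 to 20.2). It was 2.80 (0.921 to 7.24) over B cell-like cells in library 1 and 3.46 (0.948 to 28.8) over NK cell-like cells in library 2, which had 2 UMIs in 80 cells. Beside monocyte-like and T cell-like cells the excess held in all 3 libraries. The 227 UMIs of library 2 came from 198 cells and the 138 of library 3 from 120 cells, with at most 3 in a cell.

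Per3 (chr4:151003652-151044665, minus strand), the third PERIOD gene, had 115 of its 183 UMIs in B cell-like cells, the class with most UMIs, at 4.55, 3.51 and 4.22 CPM. NK cell-like cells had higher levels in libraries 1 and 3, at 5.56 and 5.33 CPM from 7 and 4 UMIs, and 0 in library 2. T cell-like cells had 1.16, 0.592 and 1.16 CPM and monocyte-like cells 1.89, 1.19 and 0.549, both below B cell-like cells with intervals above 1 in each library. Per3 overlaps Camta1 on the same strand, which was at 25.7, 22.9 and 23.9 CPM in B cell-like cells and at 20.2, 17.2 and 21.6 in T cell-like cells. How molecules of that overlap were assigned was not tested.

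Cry1 (chr10:85131700-85185064, minus strand) encodes a cryptochrome, a protein that binds and blocks the CLOCK and ARNTL pair. It was at 22.5, 18.04 and 16.4 CPM in neutrophil-like cells, the class in which both activators were lowest. Monocyte-like cells had 11.1, 20.4 and 22.3 CPM, T cell-like cells 14.9, 13.3 and 14.2, and B cell-like cells 11.2, 9.60 and 9.15. Neutrophil-like cells exceeded B cell-like cells with intervals above 1 in all 3 libraries, and Cry1 was the only member for which B cell-like cells were below another class with intervals above 1 in every library. Cry2 (chr2:92403646-92434043, minus strand), its paralogue, went the other way: B cell-like cells had 6.27, 4.25 and 7.04 CPM, T cell-like cells 6.81, 5.62 and 4.81, monocyte-like cells 3.24, 2.84 and 3.30, and neutrophil-like cells 2.58, 1.36 and 0.364, from 4, 15 and 4 UMIs. Within a class and library the ratio of Cry1 to Cry2 UMIs does not depend on the class total. That ratio was 8.75, 13.3 and 45.0 in neutrophil-like cells, 3.42, 7.17 and 6.78 in monocyte-like cells, 2.19, 2.37 and 2.96 in T cell-like cells and 1.78, 2.26 and 1.30 in B cell-like cells. In each library the neutrophil-like interval, with lower bounds of 3.13, 7.85 and 17.3, lay above the B cell-like interval, with upper bounds of 2.33, 3.87 and 1.92.

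Nr1d2 (chr14:18204054-18239127, minus strand) encodes REV-ERBβ, a repressor of Arntl. It was at 8.13, 10.2 and 8.44 CPM in B cell-like cells, 6.81, 4.73 and 6.54 in T cell-like cells, 5.13, 2.13 and 2.75 in monocyte-like cells and 9.53, 17.8 and 16.0 in NK cell-like cells, the last from 12, 6 and 12 UMIs. Only 4 UMIs of Nr1d2 were counted in 5663 neutrophil-like cells, 0, 3 and 1 in the 3 libraries, and the count of 0 allows up to 1.93 CPM in library 1 at 3 UMIs (exact upper bound 2.38). Like Arntl, it was lowest in neutrophil-like cells in all 3 libraries, with the next class 7.84-fold higher in library 2 (interval 1.96 to 45.0) and 30.2-fold in library 3 (4.65 to 1272). Nr1d1 (chr11:98767932-98775333, minus strand), which encodes REV-ERBα, had 33 UMIs in all. Of these, 22 were in T cell-like cells, 16, 2 and 4 in the 3 libraries or 2.06, 0.592 and 0.770 CPM. The gene overlaps Thra on the other strand, which was also highest in T cell-like cells in every library, at 22.2, 18.3 and 12.7 CPM, and whether counting separated the strands was not tested.

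Dbp (chr7:45705088-45710203, plus strand) encodes a PAR bZIP factor that CLOCK and ARNTL switch on directly, and it is often read as a hand of the clock. It was highest in T cell-like cells, at 12.98, 15.7 and 14.4 CPM, and next in B cell-like cells, at 10.4, 9.23 and 13.5. T cell-like cells exceeded B cell-like cells beyond counting error in library 2 only (1.70, 1.13 to 2.55). In monocyte-like cells Dbp was at 4.32, 1.66 and 2.01 CPM and in neutrophil-like cells at 1.93, 0.544 and 0.545, from 3, 6 and 6 UMIs. B and T cell-like cells lay above monocyte-like and neutrophil-like cells in all 3 libraries, with every interval above 1. The overlapping gene Sphk2 on the other strand did not follow this order: it was highest in monocyte-like cells, at 29.4, 31.8 and 31.1 CPM, against 10.3, 12.4 and 13.3 in T cell-like cells.

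A member was said to have a leading class when its level was highest in the same class in all 3 libraries and the ratio to the next class had an interval above 1 in each. None of the 10 members had one, beside 19.9% of 13152 genes with at least 20 UMIs over the classes. By the same rule turned round, 3 of 10 members, Arntl, Clock and Nr1d2, had a lowest class, beside 21.5% of those genes, and in each case it was the neutrophil-like class, which was the lowest class of 17.6% of all genes. The loose filter (at most 20% mitochondrial UMIs) left Clock and Nr1d2 with a lowest class and not Arntl, beside 20.7% of genes, and the strict filter (at least 500 genes, at most 5%) left none, beside 4.42%. With libraries 2 and 3 alone the 3 members were again Arntl, Clock and Nr1d2, beside 35.5% of genes, and no member had a leading class, beside 25.9%. Between single pairs of classes, 4 of 9 measured members were lower in neutrophil-like than in B cell-like cells in all 3 libraries (Arntl, Clock, Nr1d2 and Dbp), beside 41.2% of all genes, and 1 of 9 was higher (Cry1), beside 16.4%. Most genes had lower CPM in neutrophil-like cells. The median log2 ratio given above, neutrophil-like over B cell-like, was -0.59, -1.18 and -1.34 in the 3 libraries. Totals were also taken without mitochondrial, haemoglobin and immunoglobulin genes, S100a8 and S100a9. Arntl, Clock and Nr1d2 then still had the neutrophil-like class as their lowest, beside 19.3% of genes with any lowest class. When class totals were rescaled to each other by TMM, a trimmed mean of log ratios between genes, which raised neutrophil-like levels by 0.31, 0.90 and 0.99 on the log2 scale, no member had a lowest class, beside 13.9% of all genes, and Per2 and Cry1 had the neutrophil-like class as their leading class, beside 26.8%. Arntl was still lowest in neutrophil-like cells in each library on that scale, at 0.796, 1.01 and 1.63 CPM against 4.46 or more elsewhere. So were Clock, at 4.775, 8.78 and 5.25 CPM against 14.9 or more, and Nr1d2, at 0, 0.507 and 0.181 against 1.87 or more. For none of these 3 genes did the interval lie above 1 in every library.

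The balance between the genes that ARNTL and CLOCK switch on and Arntl itself was read as the UMIs of Per1, Per2, Per3, Nr1d1, Nr1d2 and Dbp over those of Arntl in the same class and library, a ratio that no scaling changes. In B cell-like cells it was 1.58 (interval 1.36 to 1.83) in library 1, 1.64 (1.28 to 2.10) in library 2 and 1.70 (1.38 to 2.09) in library 3. The 3 libraries overlapped closely there, and the same was true of T cell-like cells, at 2.10 (1.65 to 2.70), 2.28 (1.55 to 3.39) and 2.48 (1.81 to 3.45). In monocyte-like cells the ratio was 1.35 (0.917 to 1.99), 2.22 (1.52 to 3.29) and 1.95 (1.39 to 2.74), with overlapping intervals. Its parts did not move together there. Per1 over Arntl was 0.429 (0.244 to 0.728), 1.61 (1.07 to 2.44) and 1.255 (0.8675 to 1.82), with library 1 below both others. Dbp over Arntl was highest in library 1, at 0.3265 (0.173 to 0.584), 0.171 (0.0646 to 0.384) and 0.2 (0.0944 to 0.386). NK cell-like cells had 6.43 (2.88 to 16.9), 3.50 (1.10 to 14.6) and 2.55 (1.23 to 5.67). In neutrophil-like cells it was 24.0 (3.91 to 987), 61.0 (27.8 to 167) and 29.6 (15.3 to 65.4), above the intervals of B, T and monocyte-like cells in all 3 libraries. The numerator there was mainly Per1 and Per2, with 13 and 6 of 24 UMIs in library 1, 113 and 227 of 366 in library 2 and 114 and 138 of 266 in library 3, while Dbp over Arntl alone was 3.00 (0.241 to 158), 1.0 (0.267 to 3.74) and 0.667 (0.195 to 2.10).

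**Figure D2:**
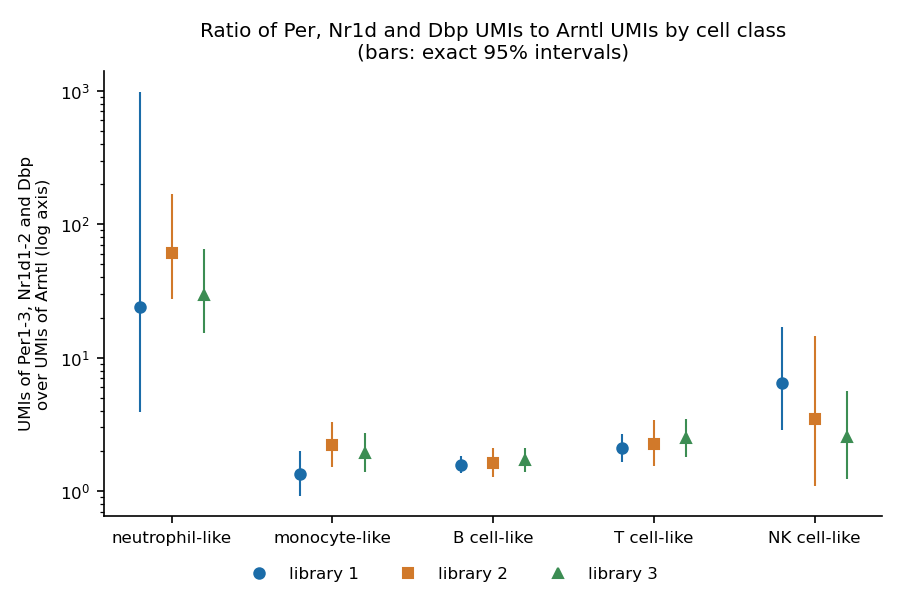
UMIs of Per1, Per2, Per3, Nr1d1, Nr1d2 and Dbp over UMIs of Arntl (y axis, logarithmic, no unit) in the 5 classes (x axis). Points are the 3 libraries and bars exact 95% intervals from the counts. B cell-like cells sit between 1.58 and 1.70 and neutrophil-like cells between 24.0 and 61.0.

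Differences between libraries were called within a class when the highest library was at least 1.5 times the lowest and the interval of that ratio lay above 1. Since the extremes of 3 are chosen, the share of all measured genes called in the same class is the background. In monocyte-like cells 4 of 7 measured members were called (Per1, Cry1, Nr1d2 and Dbp), beside 27.5% of all genes measured there. In neutrophil-like cells 4 of 6 were called (Clock, Per2, Per3 and Cry2), beside 61.7%, a share near the background. TMM scaling within that class shifted its levels by -0.44, 0.12 and 0.32 on the log2 scale in the 3 libraries, and Per1 and Per2 were then the members called, beside 47.2% of genes. Without library 1 the neutrophil-like calls were Clock, Per2 and Per3, beside 22.1%, and without library 2 or library 3 Per2 alone, beside 54.2% and 44.1%. In T cell-like cells 1 of 8 was called (Clock), beside 13.5%, a call that was lost without library 2 or library 3, and none of 9 in B cell-like cells and none of 5 in NK cell-like cells, beside 9.80% and 12.7%. The median ratio of highest to lowest library was 2.02 over the members measured in monocyte-like cells and 1.37 over all genes, and in B cell-like cells 1.24 over the members and 1.20 over all genes. These medians cover measured genes with a UMI in every library and were not matched for counts. The members had fewer UMIs, with medians of 145 against 289 in monocyte-like cells and 233 against 469 in B cell-like cells.

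**Figure D3:**
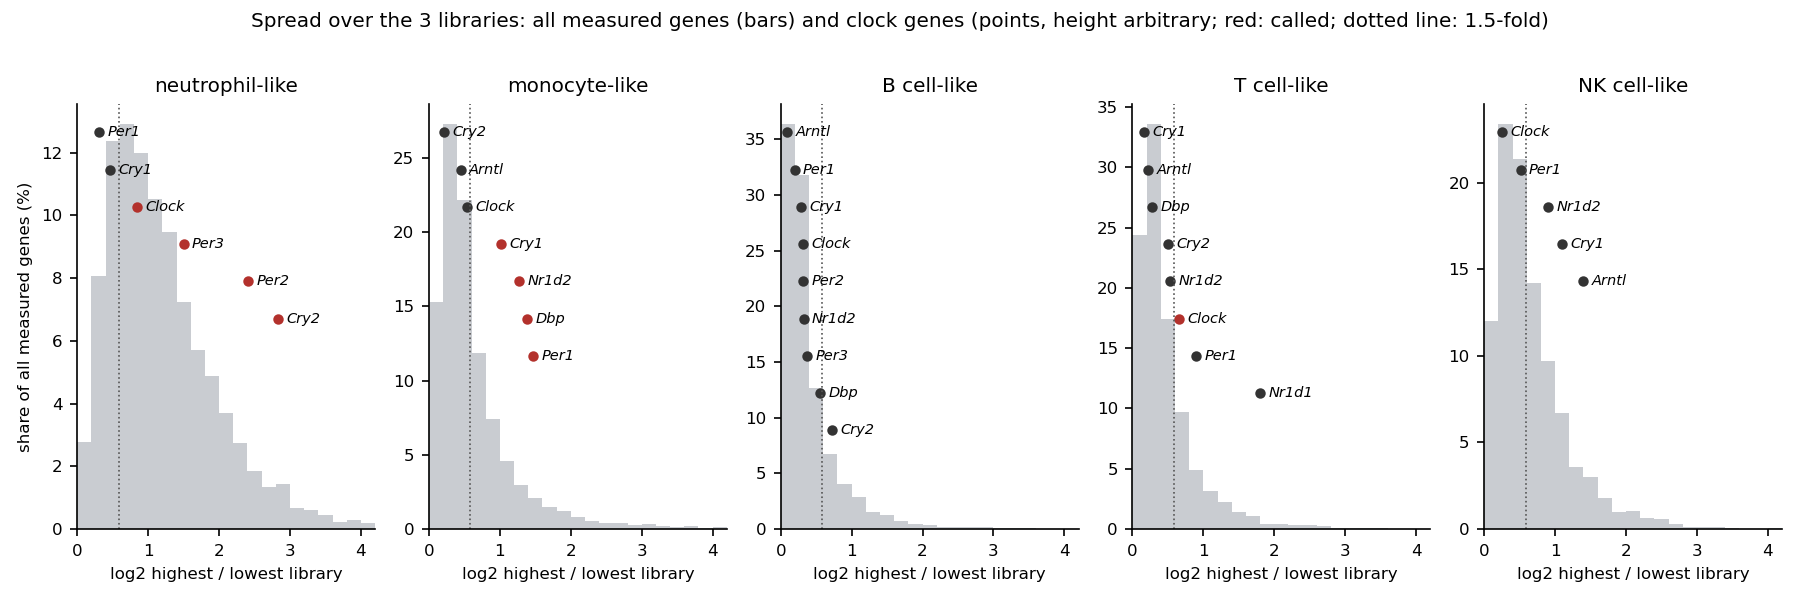
Spread over the 3 libraries within each class. Grey bars give the share of all measured genes (y axis, %) by the log2 ratio of the highest to the lowest library (x axis, bins of 0.2), points the measured clock genes at their own ratio (height arbitrary; red, called; the dotted line marks 1.5-fold). In monocyte-like cells Cry1, Nr1d2, Dbp and Per1 lie to the right of the line, between 1.01 and 1.46 on the log2 scale, and in B cell-like cells 8 of 9 members lie to the left of it.

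In monocyte-like cells Per1 was 2.76-fold higher in library 2 than in library 1 (interval 1.67 to 4.75) and 2.23-fold higher in library 3 than in library 1 (1.35 to 3.83). Between libraries 2 and 3 the ratio was 1.24 (0.870 to 1.76). Cry1 was also lowest in library 1, 1.84-fold (1.26 to 2.74) and 2.02-fold (1.41 to 2.95) higher in libraries 2 and 3 than in library 1, with 0.912 (0.684 to 1.21) between libraries 2 and 3. Dbp and Nr1d2 went the other way and were highest in library 1. Library 2 was at 0.384 of library 1 for Dbp (0.134 to 0.987) and at 0.416 for Nr1d2 (0.166 to 0.965), from 7 and 9 UMIs, and libraries 2 and 3 did not differ beyond counting error for either gene. Library 1 was thus set apart from both other libraries for Per1 and Cry1, and from library 2 alone for Dbp and Nr1d2, for which the ratios of library 3 to library 1 were 0.467 (0.196 to 1.07) and 0.536 (0.253 to 1.11). Without library 1 none of the 6 members still measured was called, beside 8.58% of genes, and without library 2 Per1 and Cry1 were called and Dbp and Nr1d2 were not, beside 17.2%. With TMM scaling within the class, Per1 and Cry1 were still called and Dbp and Nr1d2 were not.

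Other genes moved with the libraries in monocyte-like cells. The sum of 11 glucocorticoid-induced genes, such as Tsc22d3 and Fkbp5, counted without Per1, was 519.5 CPM in library 1, 934.3 in library 2 and 830.2 in library 3. It was lowest in library 1 in every other named class too, as in B cell-like cells at 326.1, 945.2 and 816.8 CPM. Per1 in B cell-like cells was at 7.10, 8.13 and 8.02 CPM, and a link between Per1 and this list was not tested in any class. The list includes Il1r2, which is also among the 10 neutrophil markers. In monocyte-like cells the sum of 10 immediate early genes such as Fos and Dusp1 was 1375, 1823 and 1450. The 10 neutrophil markers were all detected in each library and summed to 2452, 6716 and 3760 CPM, and the 10 B cell markers to 755, 186 and 146. The 7 platelet markers, also all detected, summed to 2896, 1030 and 946 CPM, and the 8 erythroid markers to 675, 3629 and 928, with Slc4a1 at 0 in library 2. The 12 T cell markers summed to 114, 19.2 and 35.2 CPM, with Cd4 at 0 in library 2 and Cd8a in library 3, and the 10 NK cell markers to 69.3, 15.2 and 12.1, with Ncr1, Klrb1c and Klra8 at 0 in libraries 2 and 3, and Prf1 and Eomes also at 0 in library 2. The part of these transcripts in the library differences of Per1, Cry1, Dbp and Nr1d2 was not tested. Per1 in neutrophil-like cells was at 8.37, 10.2 and 10.4 CPM, against 5.67, 15.6 and 12.6 in monocyte-like cells. With TMM scaling between the classes of each library it was at 10.35, 19.09 and 20.63, against 5.26, 13.73 and 10.47.

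The monocyte-like class held 2 clusters in different proportions. In the cluster led by Fn1 and Ccr2, genes of the classical monocytes that enter inflamed tissue, Per1 was at 4.55, 15.6 and 10.3 CPM in libraries 1, 2 and 3 and Cry1 at 11.4, 19.5 and 22.9. In the cluster led by Ear2 and Ace, genes of the monocytes that patrol vessel walls, Per1 was at 8.41, 16.3 and 18.8 CPM and Cry1 at 10.3, 29.95 and 20.9. Library 1 was lowest for both genes in both clusters, while the order of libraries 2 and 3 differed between the clusters. The Ccr2 cluster held 239, 339 and 282 cells of libraries 1, 2 and 3 and the Ace cluster 176, 61 and 196. Dbp was counted mainly in the Ccr2 cluster, at 5.69, 1.82 and 2.515 CPM from 15, 7 and 10 UMIs, with 1, 0 and 1 UMIs in the Ace cluster. The part of these proportions in the library differences of Dbp and Nr1d2 over the class was not tested. The interval of the ratio to library 1 lay above 1 for Per1 in libraries 2 and 3 of the Ccr2 cluster (3.42, 1.82 to 6.99, and 2.27, 1.17 to 4.74) and in library 3 of the Ace cluster (2.24, 1.03 to 5.40). Nr1d2 was higher in the Ace cluster than in the Ccr2 cluster in each library, at 8.41, 5.45 and 6.73 against 3.79, 1.82 and 1.26 CPM, with an interval that excluded equality in library 3 only (Ccr2 over Ace 0.187, 0.0501 to 0.5998). Arntl had the same order, at 19.6, 16.3 and 12.8 against 10.6, 9.08 and 9.05 CPM, with intervals that included equality in all 3 libraries.

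**Figure D4:**
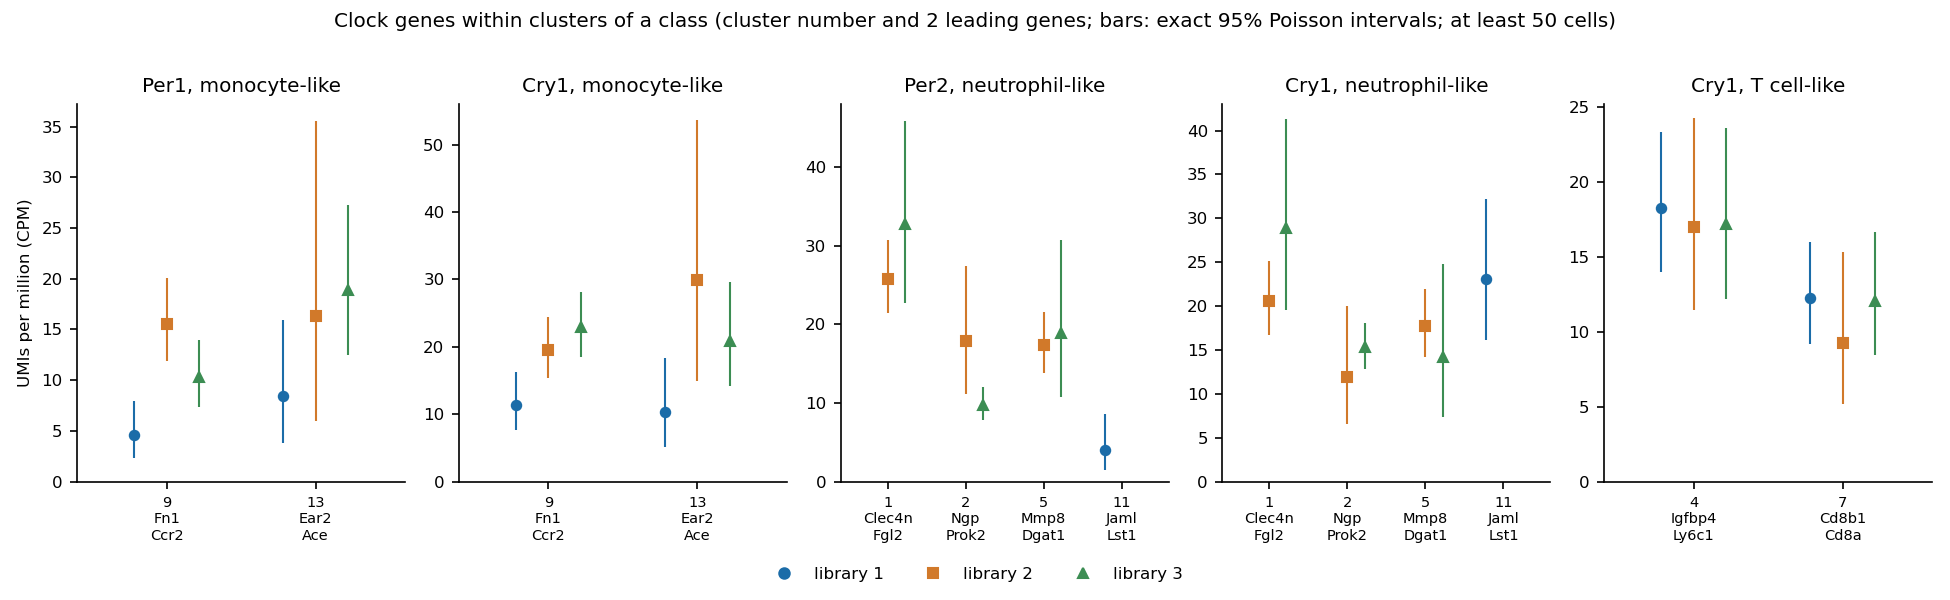
Levels of Per1, Cry1 and Per2 (y axes, CPM, each starting at 0) within the clusters of a class, labelled by number and 2 leading genes (x axis). Points are libraries with at least 50 cells in the cluster and bars exact 95% Poisson intervals. Per1 and Cry1 are lowest in library 1 in both monocyte-like clusters, and Per2 is lower in the neutrophil-like cluster of library 1, led by Jaml and Lst1, than in the 3 clusters that libraries 2 and 3 filled.

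In neutrophil-like cells different clusters made up the class in different libraries, so the library values of Per2 are given by cluster. Per2 was itself among the variable genes that formed these clusters. Its levels by cluster were not recomputed on clusters made without it, so they are descriptions only. The cluster of library 1 led by Jaml and Lst1 had 6 Per2 UMIs in 529 cells, or 3.97 CPM (interval 1.46 to 8.63). Under the strict filter a cluster led by Cd101 and Jaml was unnamed, the 28 neutrophil-like cells left in library 1 had Per2 at 22.7 CPM, and the log2 spread of Per2 in neutrophil-like cells, library 2 over library 1, turned from 2.41 to -0.10. The value of 22.7 CPM comes from those 28 cells alone and is given without an interval, so the turn is not read as a reversal. The cluster led by Clec4n and Fgl2, which also held Il1b among its leading genes, was at 25.8 CPM in library 2 and 32.8 in library 3. The cluster led by Mmp8 and Dgat1 was at 17.3 and 18.9, and the cluster led by Ngp and Prok2, with Ly6g, at 17.9 and 9.75. Over the whole class Per2 was 1.64-fold higher in library 2 than in library 3 (1.32 to 2.04). Within clusters that ratio was 0.788 (0.535 to 1.19) in the Clec4n cluster, 0.916 (0.532 to 1.68) in the Mmp8 cluster and 1.84 (1.08 to 2.99) in the Ngp cluster. Library 2 had 1642 of its neutrophil-like cells in the Clec4n cluster and 251 in the Ngp cluster, library 3 328 and 1372. In library 3 the Ngp cluster was lower than the Clec4n cluster for Per2 (0.298, 0.198 to 0.456) and for Cry1 (0.529, 0.354 to 0.813), and in library 2 the corresponding ratios were 0.694 (0.415 to 1.11) and 0.580 (0.306 to 1.02). Cry1 did not set the Jaml cluster apart: it was at 23.1 CPM there in library 1, and at 20.6 and 28.9 in the Clec4n cluster of libraries 2 and 3. In neutrophil-like cells the 7 platelet markers summed to 8123 CPM in library 1, 2406 in library 2 and 2165 in library 3, and the 10 neutrophil markers to 138700, 288500 and 354500. Their part in the Per2 difference was not tested.

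T cell-like cells fell into a cluster with Cd4 and a cluster with Cd8a and Cd8b1 among the leading genes. Clock, the member called for the class, was at 23.2, 17.6 and 12.7 CPM in the Cd4 cluster and at 21.7, 31.0 and 17.1 in the Cd8a cluster. Library 3 was lowest in both clusters, and the clusters differed beyond counting error in library 2 only (Cd4 over Cd8a 0.568, 0.351 to 0.906). Cry1 was higher in the Cd4 cluster in each library, at 18.3, 17.0 and 17.2 CPM against 12.2, 9.29 and 12.04, with ratios of 1.49 (1.02 to 2.19), 1.83 (0.955 to 3.66) and 1.43 (0.883 to 2.32). Dbp likewise stood at 15.1, 16.4 and 18.6 CPM against 11.3, 14.9 and 11.4, with an interval above 1 in library 3 (1.64, 1.01 to 2.66).

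Of 25 other genes of the clock pathway, 19 had at least 20 UMIs over the classes. By the rules above, 6 of the 19 had a leading class, beside the background of 19.9%, and 4 a lowest class, beside 21.5%. Among the repressors, Nfil3, which encodes a factor that competes with DBP for D-boxes, led in neutrophil-like cells at 46.4, 89.8 and 74.1 CPM, with 22.9, 59.9 and 54.4 in monocyte-like cells and 2.37 or less in B and T cell-like cells. Its order over classes was thus opposite to that of Dbp, which was highest in T and B cell-like cells. Bhlhe40 and Bhlhe41, whose products compete with CLOCK and ARNTL for E-boxes, led in different classes. Bhlhe40 led in NK cell-like cells at 54.0, 83.2 and 69.2 CPM and was lowest in T cell-like cells at 1.67, 0.296 and 1.35. Bhlhe41 led in B cell-like cells at 9.99, 11.1 and 14.1 CPM, against 0.644 or less in neutrophil-like and T cell-like cells. Cipc, which encodes a CLOCK-interacting repressor, led in NK cell-like cells at 34.9, 50.5 and 29.3 CPM and was lowest in neutrophil-like cells at 1.29, 1.36 and 0.727.

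Among the kinases that set the lifetime of PER proteins, Csnk1e (casein kinase 1 epsilon) led in neutrophil-like cells at 193, 116 and 88.5 CPM. The PAR bZIP gene Tef, a relative of Dbp, was lowest in neutrophil-like cells at 0, 0.544 and 0.0909 CPM and stood at 11.6, 12.6 and 15.2 in B cell-like cells. Nono, which encodes a PER-binding nuclear protein, was also lowest in neutrophil-like cells, at 53.5, 39.0 and 39.7 CPM. Between libraries, 5 of 16 measured pathway genes were called in monocyte-like cells (Rora, Bhlhe40, Nfil3, Tef and Usp2), beside 27.5% of all genes, and 9 of 13 in neutrophil-like cells, beside 61.7% (Bhlhe40, Nfil3, Csnk1d, Csnk1e, Gsk3b, Fbxw11, Usp2, Sirt1 and Nampt). In B cell-like cells 2 of 18 were called (Nfil3 and Timeless), beside 9.80%, in T cell-like cells 2 of 17 (Rora and Nfil3), beside 13.5%, and in NK cell-like cells 1 of 13 (Tef), beside 12.7%. In monocyte-like cells Nfil3 was lowest in library 1, at 22.9 against 59.9 and 54.4 CPM (library 2 over library 1 2.61, interval 2.04 to 3.38), as Per1 and Cry1 were, and Tef was highest there, at 10.5 against 2.37 and 4.58 CPM (library 1 over library 2 4.44, 2.18 to 9.98), as Dbp and Nr1d2 were. Bhlhe40 did not follow either order, at 34.5, 12.3 and 35.3 CPM.

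**Figure D5:**
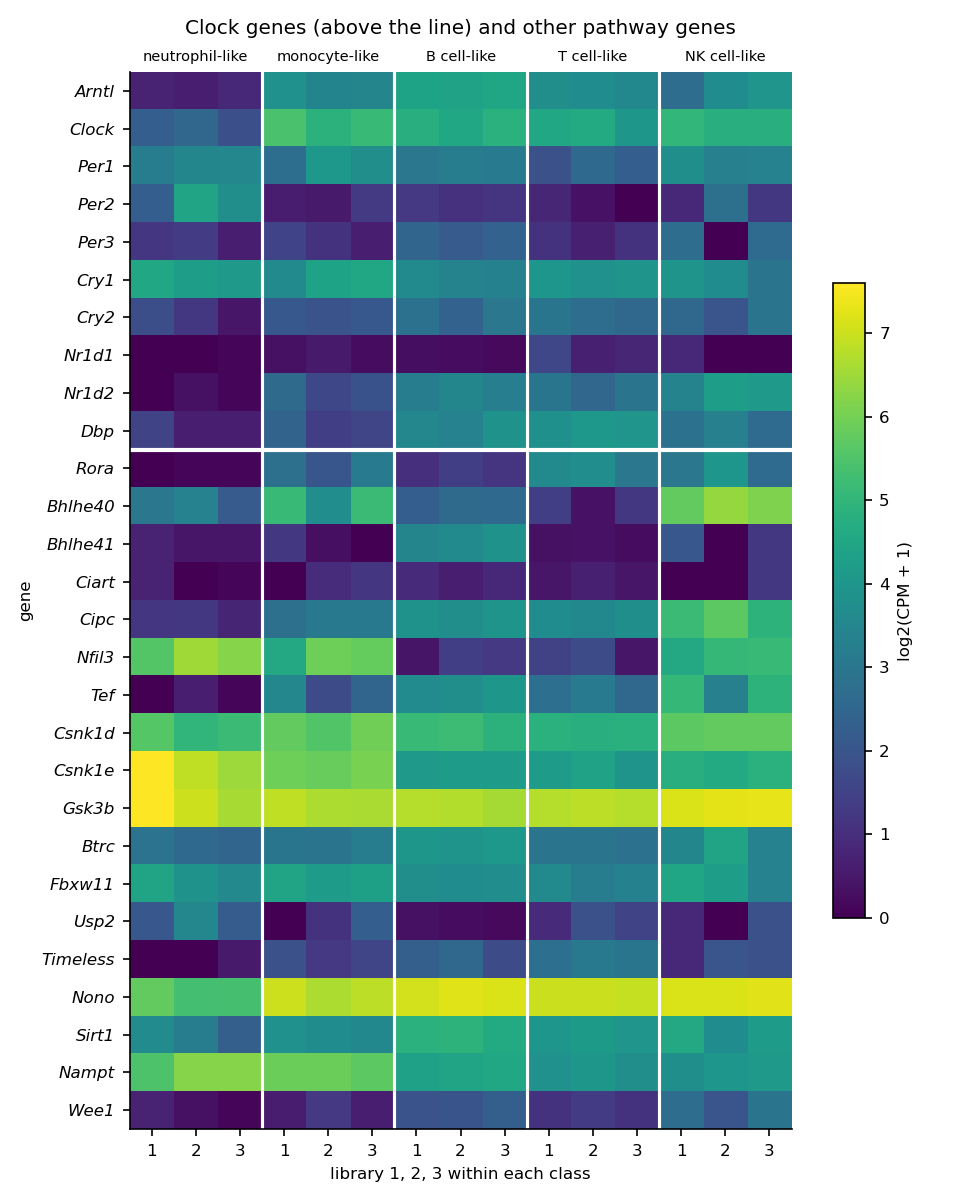
Levels as log2(CPM + 1) (colour) of the 10 clock genes, above the white line, and of 18 other pathway genes with at least 20 UMIs, below it (y axis), in libraries 1, 2 and 3 of the 5 classes (x axis). Nfil3 and Csnk1e are brightest in neutrophil-like cells, where Arntl, Nr1d2, Tef and Cipc are dark, and Bhlhe40 is brightest in NK cell-like cells.

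The genes whose levels ran most alike over the 15 combinations of class and library were sought for the 3 members with most UMIs, as Pearson's r of log2(CPM + 1) among 8460 genes with at least 500 UMIs. For Arntl they were Trit1 (r = 0.988), Ccdc191 (0.974) and Smyd5 (0.971), and for Clock Nenf (0.983), Crip1 (0.976) and Zdhhc21 (0.971). For Cry1 the closest were Cd200r1 (0.875), Mmp19 (0.824) and Fas (0.821). The points share libraries and class totals, and most of the range for Arntl and Clock is the gap between neutrophil-like cells and the rest, so these values are descriptions of the pattern only.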

How the data were processed

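Per the labels' protocols, leukocytes of 3 mice per group were pooled and sequenced with Chromium 3' v3 chemistry. The authors deposited a matrix of UMI counts for 31053 genes and 22204 barcodes. Cell Ranger 4.0.0, Trimmomatic 0.39, Seurat 3.0 and the build GRCm38 are listed in the submitters' processing notes, while the header of the deposited matrix names Cell Ranger 6.0.2. The aligner settings and whether intronic reads were counted are not given in the sources used here. Barcode endings 1, 2 and 3 are not tied to the groups, so each library is given by itself. How far 3 mice differ within a pool cannot be seen, and intervals cover counting error only.

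Kept barcodes had 200 or more genes and no more than 10% of UMIs from mitochondrial genes (18885). Scrublet's automatic threshold marked 0.0983%, 2.14% and 3.84% of libraries 1, 2 and 3 and had not worked in library 1, so the 6% of cells with the highest score in each library were left out (1133). Cells were clustered with scanpy 1.11.5 (2000 variable genes, 30 components, 15 neighbours, Leiden resolution 1). Of the 10 members, Per2 alone was among the variable genes. Clusters were named from at least 3 markers of a type and left unnamed where another type's markers led. Counts were summed per class and library and divided by their total (CPM). Poisson and Clopper-Pearson intervals came from scipy 1.17.1 and TMM factors from edgeR 4.0.16, which was used for scaling alone. Gene positions are those of GENCODE M21 (GRCm38). No test between groups was possible with 1 library per group. The rule for calls between libraries was tested on simulated counts drawn from B cell-like means, with changes well above the 1.5-fold limit. The coverage of the ratio interval was tested on simulated Poisson counts. The other steps were not tested on simulated data.

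All 10 members are named in the text. Other pathway genes are named where they have a leading or lowest class or are called between libraries, with their CPM. The values of 1 pathway gene are not reported here, though the counts over the pathway include it. The members, the other lists, the marker genes and the rules were chosen with earlier results of these data known.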

Additional observations from a re-analysis of the deposited data

How the results depend on the processing

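The alternatives were a strict cell filter (at least 500 genes, at most 5% mitochondrial UMIs), a loose filter (at most 20%), doublets kept, clustering without clock genes, TMM scaling, totals without the most abundant transcripts, a minimum of 50 UMIs, no minimum and a fold of at least 2. Added after seeing the data were counting the platelet-led cluster as B cell-like, leaving out shared barcodes and leaving out each library in turn. Of the levels recomputed, 1161 stayed within the interval of the reported value and 39 did not, 27 of them under the strict filter.

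The strict filter kept 192, 204 and 332 B cell-like cells of libraries 1, 2 and 3 (from 3238, 1333 and 1802). The median mitochondrial share of B cell-like cells was 7.04%, 6.33% and 6.08% before it, above its limit of 5%. It kept 28 neutrophil-like cells of library 1, and a cluster with 489 cells of that library, led by Cd101 and Jaml, met fewer than 3 markers of any type and was unnamed. Under it, members measured in B cell-like cells fell to 5 (from 9). Members with one lowest class in all libraries fell to 0 (from 3), beside 4.42% of all genes (from 21.5%). Members spread over libraries fell to 0 in neutrophil-like cells (from 4), beside 22.0% (from 61.7%). They came to 1 in B cell-like cells (from 0), beside 15.2% (from 9.80%). The log2 spread of Per2 in neutrophil-like cells turned from 2.41 to -0.10, and the ratio of Per, Nr1d and Dbp UMIs to Arntl UMIs in B cell-like cells, library 1, fell to 1.09. The Per2 value rests on the 28 cells left in library 1, and neither value is given with an interval.

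For members spread over libraries, the loose filter gave 1 in B cell-like, 0 in T cell-like and 1 in NK cell-like cells (from 0, 1 and 0). The shares of all genes called beside them were 10.0%, 13.7% and 13.1%. In neutrophil-like cells it called Clock, Per2 and Cry2 and not Per3, beside 64.9%. Totals without the most abundant transcripts gave the same members there, beside 52.4%. Doublets kept gave 2 in B cell-like cells, beside 9.56%, and clustering without clock genes 1, beside 9.78%. With doublets kept, Per2 was also called in monocyte-like cells, beside 26.6%. TMM scaling gave 2 members with a leading class (from 0), beside 26.8% of all genes, and 0 with a lowest class (from 3), beside 13.9%. Its spread calls were 2 in neutrophil-like, 2 in monocyte-like and 1 in B cell-like cells (from 4, 4 and 0). The shares beside them were 47.2%, 27.0% and 9.68%. A minimum of 50 UMIs gave 4 members measured in monocyte-like and 1 in NK cell-like cells (from 7 and 5), and spread calls of 2 in neutrophil-like and 2 in monocyte-like cells. A fold of at least 2 gave 0 in T cell-like cells. The shares of all genes under this minimum and this fold are not given here. Leaving out each library in turn gave 3 to 4 members with a lowest class, beside 24.4% to 35.5% of all genes. Spread calls were then 1 to 3 in neutrophil-like cells, beside 22.1% to 54.2%. They were 0 to 4 in monocyte-like cells, beside 8.58% to 18.4%, and 0 to 1 in T cell-like cells, beside 3.01% to 8.97%. The cause of these changes was not tested. Cry2 in neutrophil-like cells rests on 4, 15 and 4 UMIs, and Nr1d1 on too few in any class but T cell-like. No paired analysis was possible because each group had 1 library and the libraries carry no group.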

Other observations

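The unnamed cluster led by Gp5, Treml1 and other platelet genes had clock transcripts at a summed level of 86.6 CPM in library 1, 87.8 in library 2 and 80.7 in library 3, from 300, 25 and 53 UMIs. B cell-like cells of the same libraries stood at 95.3, 88.6 and 101 CPM, and erythroid-like cells at 2.61, 0 and 7.88. The platelet-led cluster had a median of 3988.5 UMIs per cell and had met at least 3 markers of a type other than platelet. Which cells it holds was not tested, so its levels are not read as those of platelets.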
